A study of Homo sapiens with 6 samples.

Results

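The 10 genes described here encode the 5 subunits of the transcription factor NF-kappa B (NFKB1, NFKB2, REL, RELA and RELB), the I kappa B inhibitors NFKBIA, NFKBIB and NFKBIE, the ubiquitin-editing enzyme A20 (TNFAIP3) and its binding partner TNIP1. They were taken by symbol from the probe annotation, which gave 16 probe sets for the 10 genes, of 19064 probe sets and 11963 genes with 1 symbol in the series. Signals were measured in 3 populations of MDA-MB-231, an established human breast cancer line of the triple-negative, mesenchymal kind: the parental line and the separately isolated seeder populations S1a and S1b. Seeder is the labels' word for tumour cells that leave the blood to settle again in a tumour that is already there. Each population was measured on 2 Affymetrix arrays from total RNA of subconfluent cells in medium with 10% serum, without any further agent named in the labels. S1a and S1b are each 1 isolated population, and no isolate of other cells was measured, so seeding and the isolation itself cannot be told apart. The 2 arrays of each population are titled as biological replicates, but nothing says that they came from separate cultures. All p-values therefore rest on an array-to-array spread that may be technical. Those for the mean of S1a and S1b do not include the spread between the isolates.

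NF-kappa B acts as dimers of Rel family proteins. RELA, RELB and c-Rel (REL) carry activation domains, while NFKB1 and NFKB2 encode the precursors p105 and p100, which are processed to the DNA-binding subunits p50 and p52. In resting cells the I kappa B proteins hold the dimers in the cytoplasm until the I kappa B kinase marks them for degradation. Several of these genes are themselves transcribed by NF-kappa B, so that NFKBIA, TNFAIP3 and others close a negative feedback loop. MDA-MB-231 is known for constitutive NF-kappa B activity. The arrays report transcript signal only. They hold no measure of protein, of precursor processing or of nuclear localisation, and in such bulk RNA fewer expressing cells and less RNA per cell cannot be told apart.

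Promoter windows of 4 of these genes are shown because their sequences carry the kappa B motif through which this feedback is described, and because they stand for an inhibitor, a subunit and the A20 pair whose signals are compared below. Each window runs from 250 bases before to 50 bases after an annotated start (RefSeq, GRCh38.p14) and is written 5′ to 3′ on the strand of the gene. Capitals mark matches on either strand to the kappa B consensus GGGRNWYYCC. In it R is A or G, N any base, W A or T, and Y C or T. NFKBIA lies on the minus strand at chr14:35404700-35404999, NFKB1 on the plus strand at chr4:102501109-102501408, TNFAIP3 on the plus strand at chr6:137867009-137867308 and TNIP1 on the minus strand at chr5:151080985-151081284.
NFKBIA: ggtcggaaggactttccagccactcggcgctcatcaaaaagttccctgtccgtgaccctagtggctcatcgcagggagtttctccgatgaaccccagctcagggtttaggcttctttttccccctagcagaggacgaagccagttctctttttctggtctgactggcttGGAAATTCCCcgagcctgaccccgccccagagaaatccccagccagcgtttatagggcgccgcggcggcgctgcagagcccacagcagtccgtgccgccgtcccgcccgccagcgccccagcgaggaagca
NFKB1: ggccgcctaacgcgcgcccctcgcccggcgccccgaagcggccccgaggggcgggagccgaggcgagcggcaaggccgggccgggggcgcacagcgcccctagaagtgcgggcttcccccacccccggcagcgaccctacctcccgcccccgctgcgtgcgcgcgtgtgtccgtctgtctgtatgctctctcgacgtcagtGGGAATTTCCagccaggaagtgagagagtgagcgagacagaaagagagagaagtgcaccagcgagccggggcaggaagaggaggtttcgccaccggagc
TNFAIP3: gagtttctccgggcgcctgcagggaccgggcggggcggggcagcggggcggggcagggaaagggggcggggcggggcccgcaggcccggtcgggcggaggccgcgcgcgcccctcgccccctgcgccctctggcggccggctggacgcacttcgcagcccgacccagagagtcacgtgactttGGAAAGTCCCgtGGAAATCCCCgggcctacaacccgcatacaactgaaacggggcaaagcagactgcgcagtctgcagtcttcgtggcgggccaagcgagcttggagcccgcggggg
TNIP1: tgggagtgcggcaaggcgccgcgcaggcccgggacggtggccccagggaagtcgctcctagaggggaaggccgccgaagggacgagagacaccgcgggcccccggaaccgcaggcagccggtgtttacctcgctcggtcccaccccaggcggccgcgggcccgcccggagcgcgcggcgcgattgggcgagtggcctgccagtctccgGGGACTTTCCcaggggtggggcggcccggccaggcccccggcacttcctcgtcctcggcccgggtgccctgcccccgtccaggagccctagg

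The table of promoter windows held 14 windows for 8 of the 10 genes and none for RELB and NFKBIE. The kappa B consensus was found in 8 of these windows and in at least 1 window of 7 of the 8 genes, RELA being the exception. Over all genes of the table, 7.09% had a window with the consensus (1937 of 27305), and 5.91% of the 35116 windows held it. Both strands were searched. In the windows shown, the match read 5′ to 3′ along the motif was GGGAATTTCC in NFKBIA (opposite strand, 81 to 72 bases before the start) and in NFKB1 (same strand, 49 to 40 bases before the start). TNFAIP3 held GGGACTTTCC and GGGGATTTCC on the opposite strand, and TNIP1 held GGGACTTTCC on the same strand. NFKB2 had matches in 2 of its 3 windows. NFKB1 and TNIP1 each had another window, not shown, without a match. These matches describe letters in a window and not binding, which was not measured.

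Trimmed mean signals of the arrays all lay at 500.2 units. Medians were not equal, with 106 and 98.6 units on the parental arrays and a lower 87.6 to 91.7 units on the isolate arrays. Log2 signals correlated across tested probe sets with r from 0.9777 to 0.9878 within a population, from 0.9785 to 0.9812 between S1a and S1b and from 0.9211 to 0.9336 between isolate and parental arrays, a description of the arrays since probe sets are not replicates. All 8 markers expected to be high in MDA-MB-231, among them VIM, CD44 and AXL, were above the signal floor of 51.6 units on every array. PGR, CDH1 and FOXA1 were below it on every array, while KRT19, EPCAM, XBP1 and ERBB2 were above it on every array and ESR1 on 2. Of 6 leukocyte markers, PTPRC and LYZ lay below the floor on all arrays and only CD14 had a mean above it, and their summed signal was 253 to 273 units on parental arrays, 134 to 193 on S1a arrays and 89.1 to 134 on S1b arrays. Of 8 endothelial and fibroblast markers, 2 had a mean above the floor, and their summed signal was 310 to 368 units on parental, 310.02 to 337 on S1a and 287 to 288 on S1b arrays. Spike-in transcripts had mean log2 signals of 7.12 and 7.75 on the parental arrays and 7.61 to 8.08 on the isolate arrays, and GAPDH had 3′ to 5′ signal ratios of 1.06 and 1.09 (parental) and of 0.976 to 0.998 (isolates). Calls that changed after centring arrays on their medians are given below. Otherwise the part of these differences in the results was not tested.

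Against the parental line, NFKBIA, NFKBIE and RELB were lower in the isolates, NFKB1 was slightly lower, and none of the 10 genes was called higher except RELA when arrays were centred on their medians. Of the 14 member probe sets bright enough to be tested, which covered all 10 genes, 4 passed as lower in the mean of S1a and S1b against parental (28.6%) and 0 as higher (limma, Benjamini-Hochberg adjusted p under 0.05 over 11438 probe sets). At an unadjusted p under 0.05 there were 5 lower and 0 higher. The share of all tested probe sets at that unadjusted threshold was not counted, so these counts have no background. Over all tested probe sets 43.8% were called in this comparison and 23.1% were called lower. Counted by probe set, the members' share of calls was thus below the background of all calls and near that of lower calls. With 1 probe set per gene, the one with the highest mean, 4 of the 10 genes were lower and 0 higher. Over all genes read that way 46.5% were called and 23.5% were called lower. The median log2 difference of the 14 was -0.27, beside -0.04 for all tested probe sets. In 5 of the 14, all isolate arrays lay below both parental arrays, as did 29.5% of all tested probe sets. The 2 member probe sets left out as dim, 1 of NFKB2 and 1 of REL, are given with their genes.

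**Figure D1:**
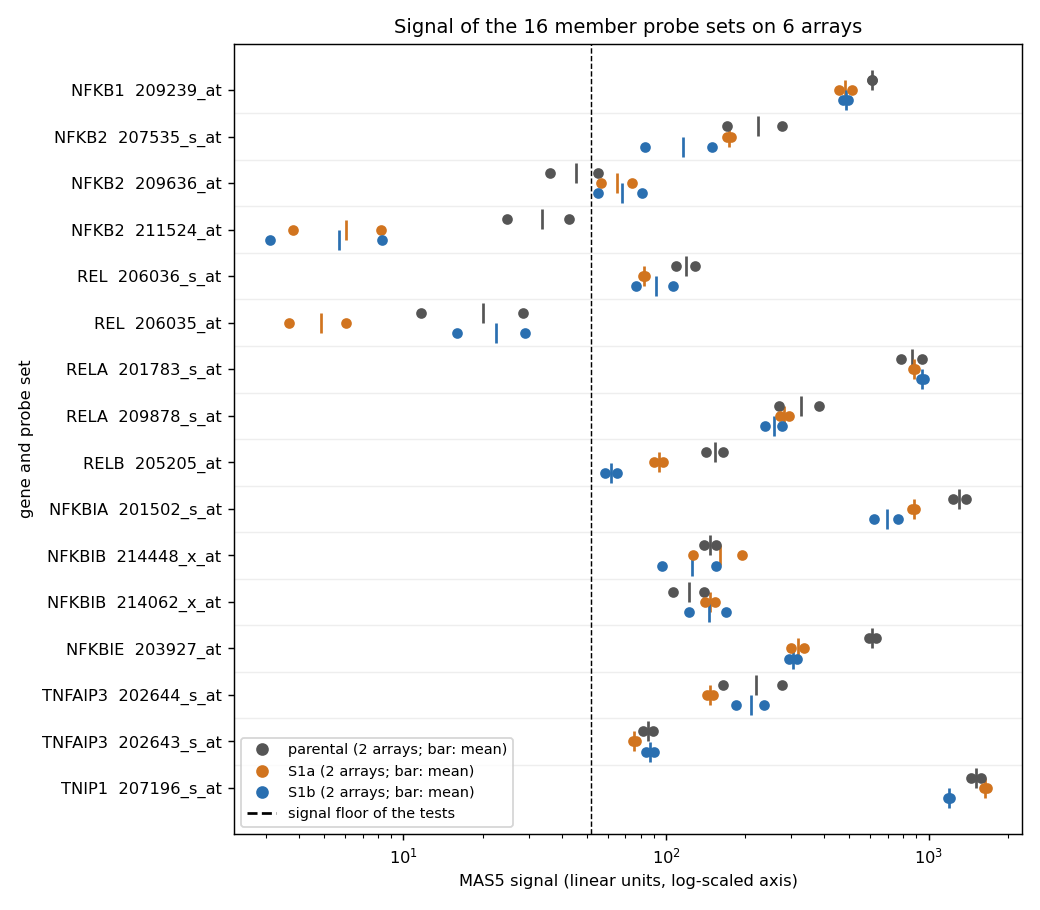
MAS5 signal (linear units on a log-scaled axis) of the 16 member probe sets on the 2 parental, 2 S1a and 2 S1b arrays, with a bar at each group's mean and a dashed line at the floor of 51.6 units. For NFKBIA, NFKBIE, RELB and NFKB1 every isolate array lies below both parental arrays, and 2 probe sets lie below the floor on every array.

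Among the tested probe sets of the subunits, that of RELB had the largest log2 difference. RELB, the partner of p52 in the alternative pathway, had signals of 142 and 165 units on the parental arrays, 97.2 and 90.2 in S1a and 58.7 and 64.9 in S1b. The 3 populations did not overlap, with S1b lowest, and the lowest S1b array lay just above the floor. The mean of both isolates was 0.97 ± 0.23 (SE) lower on the log2 scale, a 1.96-fold difference (limma adjusted p = 0.00563, 2 arrays of each population). Of all tested probe sets, 9.62% had a larger difference in either direction. For S1b alone the log2 difference from parental was -1.26 ± 0.26 (limma adjusted p = 0.00348), and for S1a it was -0.69 ± 0.26, which did not pass (limma adjusted p = 0.062). Without the variance trend the S1a difference passed (adjusted p = 0.0159, range over 17 alternatives 0.0159 to 0.23). The isolates themselves were not shown to differ in RELB (S1b minus S1a -0.57 ± 0.26, limma adjusted p = 0.356, 95% interval -1.15 to 0.01).

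NFKB1, the gene of p105 and p50, had signals of 611 and 607 units on the parental arrays, 509 and 454 in S1a and 492 and 474 in S1b. All isolate arrays were lower than both parental arrays, and the isolates overlapped. The difference was small, 0.34 ± 0.10 (log2, SE) lower in the mean of both isolates (limma adjusted p = 0.021), and 50.2% of all tested probe sets differed more. S1b minus S1a was 0.01 ± 0.12, with a 95% interval from -0.25 to 0.26. The NFKB1 call ended when arrays were centred on their medians (log2 difference -0.16, adjusted p = 0.265). Leaving out 1 array also ended it, at an adjusted p of 0.0654 and 0.0609 without the first or the other parental replicate, 0.0776 when S1a replicate 2 was dropped and 0.05 when S1b replicate 2 was, within a range of adjusted p from 0.0186 to 0.265 over 17 alternatives.

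RELA, the main activating subunit of the canonical pathway, had 2 tested probe sets, and neither passed in any comparison. On the brighter one, the parental arrays had 941 and 788 units, the S1a arrays 872 and 886 and the S1b arrays 934 and 961. Both isolates lay within or close to the parental range. The log2 difference was 0.08 ± 0.10 (SE) with a 95% interval from -0.13 to 0.29 (limma adjusted p = 0.506), so a change of the size seen for RELB lay outside the interval. The dimmer probe set gave -0.25 ± 0.16, the opposite sign. With median centring the brighter one was called higher (0.26, adjusted p = 0.0415, range over 16 alternatives 0.0415 to 0.765), and without parental replicate 1 the dimmer one was called lower (-0.51, adjusted p = 0.0315, range over 15 alternatives 0.0315 to 0.982).

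NFKB2, the gene of p100 and p52, had 3 probe sets, of which only the brightest had all group means above the floor. The brightest had signals of 278 and 171 units on the parental arrays, 176 and 171 in S1a and 150 and 82.8 in S1b. The S1a arrays lay at or near the lower of the parental arrays, which differed widely from each other, and both S1b arrays were lower still. Only S1b against parental passed, with a log2 difference of -0.94 ± 0.30 (SE, limma adjusted p = 0.0305, S1a -0.32 ± 0.30). That call ended without parental replicate 1 (-0.60, adjusted p = 0.172) or S1b replicate 2 (-0.53, adjusted p = 0.231). It also ended with quantile normalization (0.0522), with no filter (0.0679) and with no variance trend (0.0867), within a range of 0.00898 to 0.231 over 16 alternatives. In the mean of both isolates it was -0.63 ± 0.26 and did not pass (limma adjusted p = 0.0726), though it did with the replicate number as a block (adjusted p = 0.0395), without parental replicate 2 (-0.98, adjusted p = 0.0205) or without S1b replicate 1 (-0.84, adjusted p = 0.0249), the range over 15 alternatives being 0.0205 to 0.466. A second probe set had 55 and 36 units on the parental arrays, with a mean below the floor, 56.5 and 74 in S1a and 80.8 and 55.1 in S1b. Its lowest isolate array was level with the higher parental array, and it did not pass (limma adjusted p = 0.24), so no fold is given. The third was below the floor on every array, with 24.9 and 42.7 units on the parental arrays and 3.1 to 8.26 on the isolate arrays, and has no fold either.

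REL, which encodes the lymphoid-enriched subunit c-Rel, was measured by 1 tested probe set. Its signals were 110 and 129 units on the parental arrays, 82.1 and 83.3 in S1a and 107 and 77.1 in S1b. All isolate arrays were lower than both parental arrays, by a narrow margin for 1 S1b array, and the difference did not pass (-0.44 ± 0.24, log2, SE, limma adjusted p = 0.16). The other REL probe set was below the floor on every array, at 3.66 to 28.9 units.

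Of the I kappa B inhibitors, NFKBIA and NFKBIE fell in both isolates and NFKBIB did not pass. NFKBIA encodes I kappa B alpha, the rapidly resynthesised inhibitor whose transcription is a standard readout of the pathway. Its signals were 1234 and 1388 units on the parental arrays, 891 and 867 in S1a and 766 and 620 in S1b, with no overlap between the 3 populations. The mean of both isolates was 0.75 ± 0.10 (log2, SE) lower, a 1.68-fold difference (limma adjusted p = 0.000256). In S1a the log2 difference was -0.57 ± 0.12 (limma adjusted p = 0.0042) and in S1b -0.92 ± 0.12 (limma adjusted p = 0.000208). S1b lay below S1a by 0.35 ± 0.12, which did not pass (limma adjusted p = 0.209).

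NFKBIE encodes I kappa B epsilon, an inhibitor that is also induced by NF-kappa B and acts with slower kinetics. Its signals were 591 and 630 units on the parental arrays, 300.1 and 334 in S1a and 294 and 317 in S1b. Both isolates lay well below the parental arrays at nearly the same level. The fall was 0.96 ± 0.11 (log2, SE) in the mean of both isolates, a 1.95-fold difference (limma adjusted p = 8.52e-05), with -0.94 ± 0.13 in S1a and -0.99 ± 0.13 in S1b. The 95% interval of S1b minus S1a ran from -0.34 to 0.24 on the log2 scale. Both genes kept their calls in S1a, S1b and the mean under all alternatives that gave them a value.

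NFKBIB, which encodes I kappa B beta, had 2 probe sets whose suffix marks probes that may also match other transcripts. The brighter one had 155 and 140 units on the parental arrays, 127 and 194 in S1a and 96.9 and 155 in S1b, so the isolate arrays spanned the parental ones. Its log2 difference was -0.09 ± 0.25 (SE, 95% interval -0.63 to 0.46, limma adjusted p = 0.802). The dimmer one gave 0.25 ± 0.21, the opposite sign. The interval of the brighter one includes a fall of the size called for NFKB1.

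Of the A20 pair, TNFAIP3 did not pass in any comparison and TNIP1 was lower in S1b. TNFAIP3, which trims ubiquitin chains from signalling complexes upstream of the kinase, had signals of 275 and 165 units on the parental arrays, 150.5 and 143 in S1a and 185 and 236 in S1b on its brighter probe set. The S1b arrays lay between the parental arrays and the S1a arrays below both. The log2 difference in the mean of both isolates was -0.28 ± 0.21 (SE, limma adjusted p = 0.317), with -0.53 ± 0.25 in S1a and -0.03 ± 0.25 in S1b, none of which passed. Without parental replicate 2, the lower parental array, the mean (-0.64, adjusted p = 0.0308, range over 15 alternatives 0.0308 to 0.791) and S1a (-0.89, adjusted p = 0.0116, range over 16 alternatives 0.0116 to 0.62) were called lower. The dimmer probe set gave -0.08 ± 0.24.

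TNIP1, which binds A20 and recruits it to ubiquitin chains, was the only one of the 10 genes with a called difference between the isolates. Its signals were 1451 and 1591 units on the parental arrays, 1665 and 1629 in S1a and 1207 and 1183 in S1b. The S1a arrays lay above and the S1b arrays below both parental arrays. S1b was 0.46 ± 0.091 (log2, SE) lower than S1a, a 1.38-fold difference (limma adjusted p = 0.0377), and 0.35 ± 0.091 lower than parental (limma adjusted p = 0.0123), while S1a minus parental was 0.12 ± 0.091 (limma adjusted p = 0.346). Between the isolates 1 of the 14 member probe sets was thus called, beside 1.53% of all tested probe sets (1.23% lower in S1b). At an unadjusted p under 0.05, 2 were lower, without a share of all probe sets counted at that threshold. The call against S1a ended without any single isolate array (S1a replicate 1 or 2, S1b replicate 1 or 2, adjusted p from 0.167 to 0.25) and under 5 other settings, and the range over 17 alternatives was 0.0127 to 0.25. The log2 difference itself stayed between -0.48 and -0.43. The call against parental ended without parental replicate 2 (adjusted p = 0.0531), without S1b replicate 2 (0.0607), with no variance trend (0.0555) and with median centring (-0.17, adjusted p = 0.246), within a range of 0.00877 to 0.246.

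**Figure D2:**
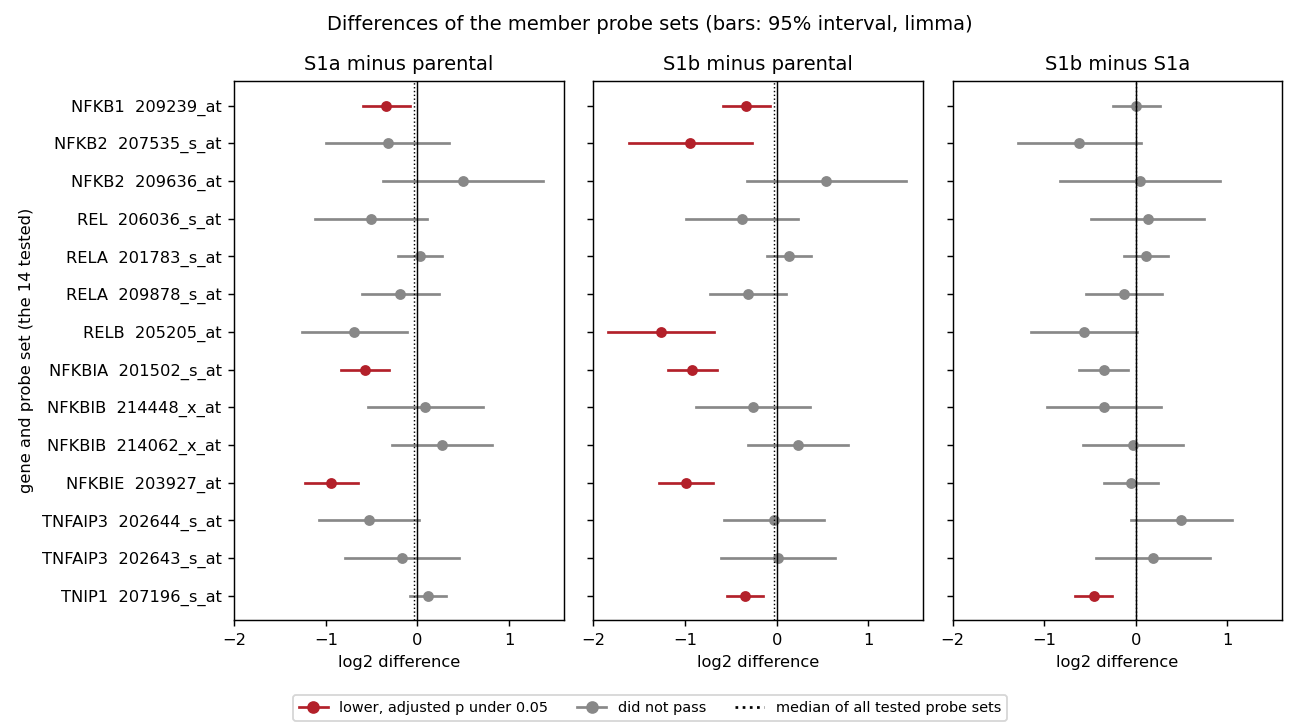
Log2 differences (points) with 95% intervals (bars) from limma for the 14 tested member probe sets, in 3 panels for S1a minus parental, S1b minus parental and S1b minus S1a; red marks an adjusted p under 0.05, grey a difference that did not pass, and the dotted line is the median of all tested probe sets. The first and middle panels share the parental arrays; NFKBIE lies near -0.94 and -0.99 in them, the dimmer NFKB2 probe set is drawn at its measured value although its parental mean is below the floor, and TNIP1 alone is red in the panel of S1b minus S1a.

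Taken singly, S1a against parental gave 3 lower and 0 higher calls among the 14 member probe sets (NFKB1, NFKBIA and NFKBIE), beside 36.7% called and 19.2% called lower over all tested probe sets. The NFKB1 call (limma adjusted p = 0.0432) ended in 13 of 18 alternatives, among them each array left out, with adjusted p from 0.0378 to 0.342 over all 18. S1b against parental gave 6 lower and 0 higher (NFKB1, NFKB2, RELB, NFKBIA, NFKBIE and TNIP1), beside 39.1% called and 20.6% called lower. Here too the NFKB1 call (limma adjusted p = 0.0441) ended in 13 of 18 alternatives, among them each array left out, with adjusted p from 0.0388 to 0.363. At an unadjusted p under 0.05 the counts were 4 lower for S1a and 6 for S1b, and 0 higher for both. No share of all tested probe sets was counted at that threshold. Both comparisons use the same parental arrays, so they are not independent of each other. The S1b count was 3 without S1b replicate 2 and without the variance trend. It was also 3 when only probe sets with no shared-probe suffix were kept, which removes the called probe sets of NFKB2, NFKBIA and TNIP1 by construction.

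Upstream of these genes, calls among the kinases and adaptors of the pathway went in both directions, as they did over all genes. Lists of pathway genes were read with 1 probe set per gene, the one with the highest mean, and 46.5% of all genes tested that way were called with both isolates averaged against parental (23% higher, 23.5% lower, median log2 difference -0.02). The called shares of the kinase, adaptor, receptor and other negative regulator lists were below this 46.5%. Those of the ligand, cofactor and target lists were above it. Of 13 tested kinases and kinase partners, 2 rose and 3 fell (median -0.05). The regulatory subunit IKBKG (NEMO) did not pass in S1a taken singly (-0.43 ± 0.16, log2, SE, limma adjusted p = 0.0514). In the mean of both isolates it was lower by 0.49 ± 0.14 (limma adjusted p = 0.0138), with means of 311 units in S1a, 285 in S1b and 419 in parental. Its call ended with median centring (adjusted p = 0.071) and without parental replicate 1 (0.078), within a range of 0.0115 to 0.078 over 16 alternatives. The catalytic subunits, named after their values were seen, did not pass: CHUK differed by 0.25 ± 0.10 (limma adjusted p = 0.0755) and IKBKB by -0.18 ± 0.13 (limma adjusted p = 0.265). With median centring CHUK was called higher (0.43, adjusted p = 0.00831, range 0.00831 to 0.23). MAP3K14 (NIK), the kinase that starts p100 processing and was also named after its values were seen, differed by -0.34 ± 0.14 (limma adjusted p = 0.0782) and passed without the variance trend (adjusted p = 0.045, range 0.045 to 0.404). TANK, an adaptor of the I kappa B kinase relatives, fell by 0.68 ± 0.11, while AZI2, another of their adaptors, rose by 0.65 ± 0.15. In S1a taken singly AZI2 did not pass (0.34 ± 0.17, limma adjusted p = 0.136). GSK3B rose by 0.69 ± 0.14.

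Among 20 receptor adaptors and ubiquitin ligases, 2 rose and 6 fell (median -0.17). Those with the smallest p-values all fell: the scaffold CARD10 (-0.62 ± 0.087, log2, SE), the Toll-like and interleukin 1 receptor adaptor MYD88 (-0.51 ± 0.087), the kinase RIPK2 (-0.66 ± 0.12) and the adaptor TRAF5 (-0.65 ± 0.15). Of 14 tested receptors, 1 rose and 4 fell (median 0.01). CD40 fell (-1.06 ± 0.11), with means of 350 units in S1a, 236 in S1b and 605 in parental, and the interleukin 1 receptor IL1R1 fell at least 4.36-fold, from 225 units to a mean below the floor. The death receptor TNFRSF21 fell by 0.56 ± 0.088, while the TRAIL receptor TNFRSF10B rose by 0.53 ± 0.072. Of 16 ligands, 13 had a named probe set and only 4 of these were bright enough to test, of which 1 rose and 1 fell. IL1B, which encodes interleukin 1 beta, rose and TNFSF10, which encodes TRAIL, fell at least 15-fold. The probe set of TNFSF10, like those of CXCL8 and CFLAR below, carries the same suffix as those of NFKBIB.

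**Figure D3:**
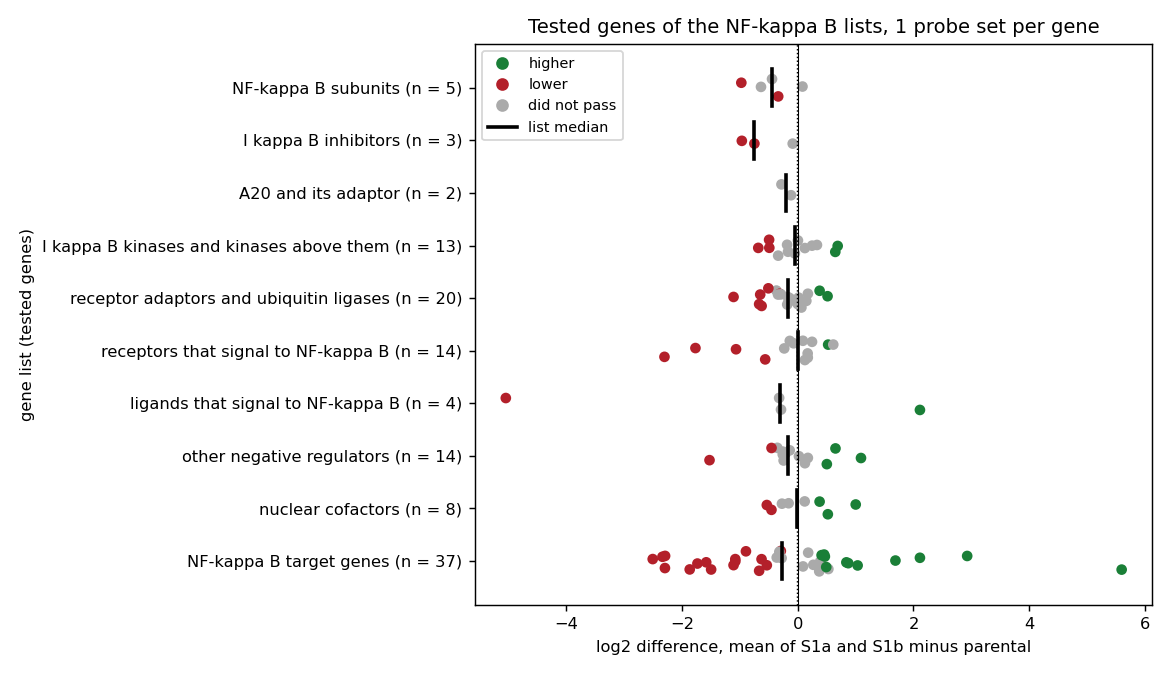
Log2 difference of the mean of S1a and S1b from parental for the tested genes of 10 NF-kappa B lists, 1 point per gene (green higher, red lower, grey did not pass), with a black bar at each list's median and a dotted line at the median of all tested genes; points are spread vertically only for legibility. The I kappa B list has its median at -0.75 on 3 genes, and the target list spreads widely to both sides of 0.

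Other negative regulators and nuclear cofactors showed no common direction. Of 14 genes listed as other negative regulators, 3 rose and 2 fell (median -0.17). The ubiquitin ligase PELI1 rose by 1.09 ± 0.12 (log2, SE), but whether it acts as an inhibitor in these cells was not measured. PDLIM2, which promotes removal of nuclear RELA, rose by 0.65 ± 0.11. The A20 partner TAX1BP1 fell by 0.45 ± 0.079 and SOCS1 fell at least 2.2-fold. Of 8 nuclear cofactors, 3 rose and 2 fell (median -0.02). The acetyltransferase KAT2B rose by 1.00 ± 0.11, the deacetylase HDAC1 by 0.52 ± 0.074 and PARP1 by 0.38 ± 0.09. In S1a taken singly PARP1 did not pass (limma adjusted p = 0.0755). IRF1, a transcription factor that cooperates with NF-kappa B, did not pass in S1a taken singly (-0.30 ± 0.15, limma adjusted p = 0.149). In the mean of both isolates it fell by 0.53 ± 0.13 (limma adjusted p = 0.00737). Its call ended with median centring (adjusted p = 0.0531) and without parental replicate 2 (0.0618), within a range of 0.00684 to 0.0618.

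Genes that NF-kappa B is known to transcribe included both strong rises and strong falls. Of 37 tested target genes, 11 rose and 16 fell (median -0.28), beside 46.5% of all tested genes called. The list was chosen with earlier results of these data known. Its shares of calls, here and between the isolates, are therefore no independent test. BCL2A1, a BCL2 family survival gene, was at 3.28 and 12.8 units on the parental arrays, below the floor, at 386 and 466 in S1a and at 694 and 623 in S1b, at least 10.5-fold higher (limma adjusted p = 3.22e-07). The chemokine gene CXCL1 rose by 2.93 ± 0.12 (log2, SE), and CXCL8 by 1.69 ± 0.086. IL1B was at 102 and 83.3 units on the parental arrays, 618 and 628 in S1a and 297 and 246 in S1b. Neither isolate overlapped the other or the parental line.

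In the opposite direction, HLA-B, whose probe set shares probes with related class I genes, fell by 2.5 ± 0.099 (log2, SE). IL6, named by choice and not by the rank of its p-value, fell by 2.34 ± 0.29. Its signals were 565 and 677 units on the parental arrays, 174 and 151 in S1a and 55 and 138 in S1b. Survival genes of the target list, named after their values were seen, differed in direction. CFLAR fell by 1.08 ± 0.087 and XIAP fell by 1.11 ± 0.28, BCL2L1 differed by 0.09 ± 0.12 (limma adjusted p = 0.546), and BCL2A1 rose. XIAP had means of 117.5 units in parental, 63.2 in S1a and 43.3 in S1b, the last below the floor. In S1a taken singly XIAP did not pass (limma adjusted p = 0.0649). The XIAP call ended without parental replicate 1 (adjusted p = 0.0604, range 0.00443 to 0.0604), and BCL2L1 was called higher without parental replicate 2 (0.31, adjusted p = 0.0322, range 0.0322 to 0.767). The macrophage growth factor CSF1 was also named in this way and fell by 2.29 ± 0.21, with means of 261 units in S1a, 112 in S1b and 837 in parental. ICAM1, an adhesion molecule chosen likewise, had means of 173 units in parental, 89.9 in S1a and 13.2 in S1b, the last below the floor. In S1a taken singly ICAM1 did not pass (-0.92 ± 0.555, limma adjusted p = 0.219).

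Between the isolates, 4 of the 37 target genes were lower in S1b and 0 higher, beside 1.67% of all genes tested that were called at the same adjusted threshold. At an unadjusted p under 0.05 the counts were 9 lower and 2 higher. No share of all genes was counted at that threshold, and the 1.67% is no background for them. IL1B was lower in S1b by 1.19 ± 0.17 (log2, SE, limma adjusted p = 0.00849), and IL11, a cytokine of the IL6 family, by 0.75 ± 0.12 (limma adjusted p = 0.0172). The IL1B call ended without either S1a replicate (adjusted p = 0.0829 for replicate 1, 0.0963 for replicate 2) and also when S1b replicate 2 was dropped (0.0999). The IL11 call ended without any single isolate array (S1a replicate 1 or 2, S1b replicate 1 or 2, 0.09 to 0.133). Both ended with no variance trend, with adjusted p up to 0.117 for IL1B and 0.203 for IL11 over all alternatives. Both log2 differences stayed negative, from -1.33 to -1.06 for IL1B and from -0.81 to -0.69 for IL11.

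**Figure D4:**
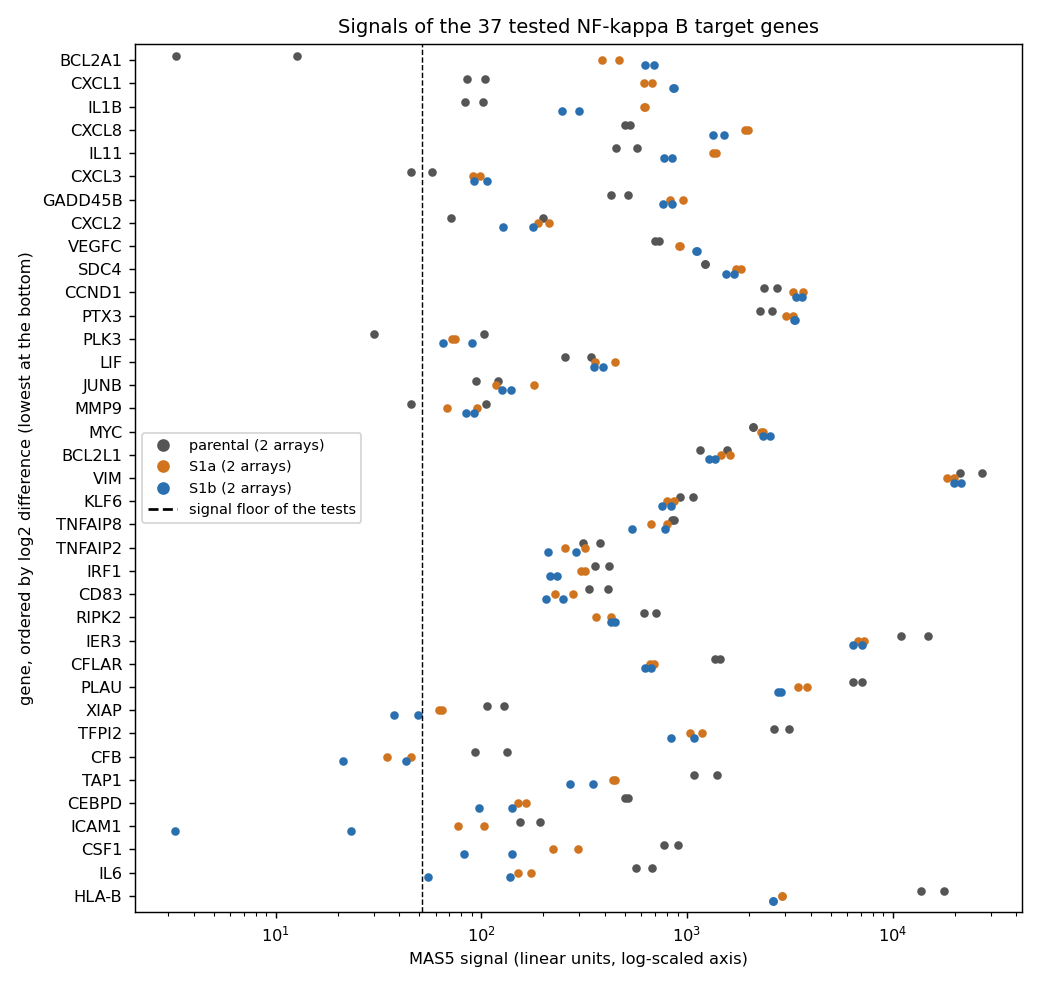
MAS5 signal (linear units on a log-scaled axis) of the 37 tested NF-kappa B target genes on the 2 parental, 2 S1a and 2 S1b arrays, ordered by the log2 difference of the isolates' mean from parental, with a dashed line at the floor of 51.6 units. BCL2A1, CXCL1 and IL1B at the top are higher on all isolate arrays, and IL6 and HLA-B at the bottom are lower on all of them.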

How the data were processed

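Total RNA of 6 samples was measured on arrays. Each probe set has 1 deposited intensity per array, unlogged, which the authors computed with MAS5 per the submitters' processing notes; its version is not given in the sources used here. Trimmed means (2% off each end) were equal between arrays. Detection calls were not used here. After removal of 62 control probe sets, 19064 of 22277 had 1 symbol, 1043 several and 2108 none, and 19052 symbols matched RefSeq gene identifiers. Signals were analysed as log2(signal + 3.949), the 10th percentile of all signals, which understates changes of dim genes. Probe sets with a mean below the 40th percentile (51.6 units) were not tested; where the dimmer side lay below it, folds are lower bounds against it. limma 3.58.1 in R 4.3.3 fitted 3 group means to 6 arrays with a variance trend (3 residual, 7.5 prior degrees of freedom) and Benjamini-Hochberg adjustment over 11438 probe sets. The fit was run on simulated data with independent noise as a check of the code, which is no test of the p-values given here. The same replicate number did not pair arrays. Members and lists were chosen with earlier results of these data known. List genes named have the smallest p-values past the threshold (4 against parental, 2 between isolates). Others, among them IL6, are marked. Arrays have no depth; their number limits precision.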

Additional observations from a re-analysis of the deposited data

Results flagged for a closer look

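The difference of TNIP1 from parental was not the same in both isolates, by the test of S1b against S1a. The log2 difference of S1b minus S1a was -0.46 (limma adjusted p = 0.0377, 2 arrays each), with both S1b arrays below and both S1a arrays above the parental arrays. Its dependence on single arrays is given with the gene. Groups of 2 arrays were too small to look for single outlying arrays.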

How the results depend on the processing

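NFKBIA, NFKBIE and RELB kept their calls with both isolates averaged against parental under every alternative that gave a value, including quantile normalization, median centring and each array left out. Median centring moved the median log2 difference of all tested probe sets from -0.04 to 0.14 in that comparison, and the split of calls from 2377 higher and 2638 lower to 3631 and 1641. Of member probe sets, S1b against parental gave 6 calls, but 3 without shared-probe suffixes or without the variance trend. The 1 call of S1b against S1a became 0 under quantile normalization, median centring, no filter, no shared-probe suffixes (which leaves TNIP1 out), no variance trend and the replicate block. Over all probe sets, leaving out shared-probe suffixes (5301 tested) gave 2207 calls for the mean of both isolates, 1850 for S1a, 2011 for S1b and 56 for S1b against S1a. The last comparison, with 175 calls, gave 77 with no filter, 5 without the variance trend, 415 with array weights, 88 with the replicate block and 405 with only its own groups fitted. With each array left out, member calls ran from 3 to 5 for the mean, 2 to 3 for S1a, 3 to 5 for S1b and 0 to 1 for S1b against S1a, and calls over all probe sets from 4227 to 4514, 2640 to 3953, 3021 to 4262 and 42 to 409. In the last, leaving out parental replicate 1 or 2 gave 408 and 409, and S1a replicate 1 or 2 or S1b replicate 1 or 2 gave 42 to 51. A lone remaining array was assumed to vary like the other groups. Deviations of arrays with the same replicate number correlated at 0.003, -0.052 and -0.085 between populations. With the block, NFKB1 did not pass in S1a or in S1b taken singly (adjusted p = 0.062 and 0.0623), as in 12 other alternatives for each, nor did TNIP1 between isolates (0.0859). Except where stated, the cause of these changes was not tested. Detection calls were not used, so signals near the floor of 51.6 units (RELB in S1b, the dimmer NFKB2 probe sets) limit what can be read from them.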
